A study of Homo sapiens with 2 samples.

Results

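The 5 genes described here are 4 enzymes of tryptophan breakdown, IDO1, TDO2, KYNU and KMO, and WARS, the cytosolic tryptophanyl-tRNA synthetase, which current nomenclature writes WARS1. They were taken by symbol from the 36601 genes listed in the deposited tables, and each symbol gave 1 gene. Single-cell RNA was profiled in 2 libraries of colon organoids grown from 1383D6, a line of human induced pluripotent stem cells. The organoids of one library were untreated (CNT), and those of the other (3CK) had received IFN-γ, TNF-α and IL-1β over 8 days. All cells derive from 1 line, the sample titles call them colon epithelial cells, and both libraries used 10x Genomics 3′ chemistry, version v3.1. The comparison asks how the mRNAs of these enzymes differed between organoids with and without the cytokines, in epithelial and in mesenchymal cells.

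Tryptophan has a few main fates in a cell. IDO1, and in liver chiefly TDO2, open its indole ring to N-formylkynurenine, the rate-limiting step of the kynurenine route, and KMO and KYNU then carry kynurenine towards quinolinate and NAD. WARS instead loads tryptophan onto its tRNA for protein synthesis, and both IDO1 and WARS are classic genes induced by interferon-γ.

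After filtering, 2487 CNT and 1398 3CK cells were kept, with 101582054 and 91863865 UMIs (counted mRNA molecules) and a median of 28895 and 62746 UMIs per cell. The libraries shared 0 barcodes. Cells with at least 2 EPCAM UMIs per 10000 were called epithelial (1655 CNT and 1016 3CK cells). Cells with at least 5 UMIs per 10000 of COL1A1, COL1A2 and COL3A1 together and under 1 of EPCAM were called mesenchymal (577 and 124), and the other 255 and 258 cells were kept apart. Markers not used for the split followed it in part: CDH1 was at 138 and 251 CPM (UMIs of the gene per 1000000 UMIs) in CNT and 3CK epithelial cells against 15.0 and 7.57 CPM in mesenchymal cells, and DCN at 50.9 and 9.57 against 1209 and 1208 CPM, whereas KRT18 was high in mesenchymal cells too (4931 and 6968 CPM). CDX2, an intestinal transcription factor, was at 80.1 and 83.3 CPM in epithelial cells, which also carried the hepatic transcripts TTR (64860 CPM in CNT and 19490 in 3CK), AFP and ALB. Each group is 1 library, so there is no test across replicates. Every interval given is a 95% interval of the counting error alone.

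In epithelial cells, 3 of the 5 genes were at least 2-fold higher in 3CK than in CNT (IDO1, WARS and KYNU), beside 8.47% of the 16830 genes that reached 1 CPM in CNT or 3CK. One of the 5 (TDO2) was at least 2-fold lower, beside 12.2% of those genes, and KMO was near 1 CPM in both libraries. In mesenchymal cells the same 3 genes were at least 2-fold higher, beside 6.04% of 17351 genes, and TDO2 was again lower, beside 16.7%. KMO did not reach 1 CPM there and was not counted. The 2-fold differences of KYNU and TDO2 over all epithelial cells were not met within 2 of the 3 ranges of TTR described further on. Fewer UMIs of a gene in a summed class can mean fewer cells with the mRNA or less of it per cell, so levels and shares of cells are given side by side.

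**Figure D1:**
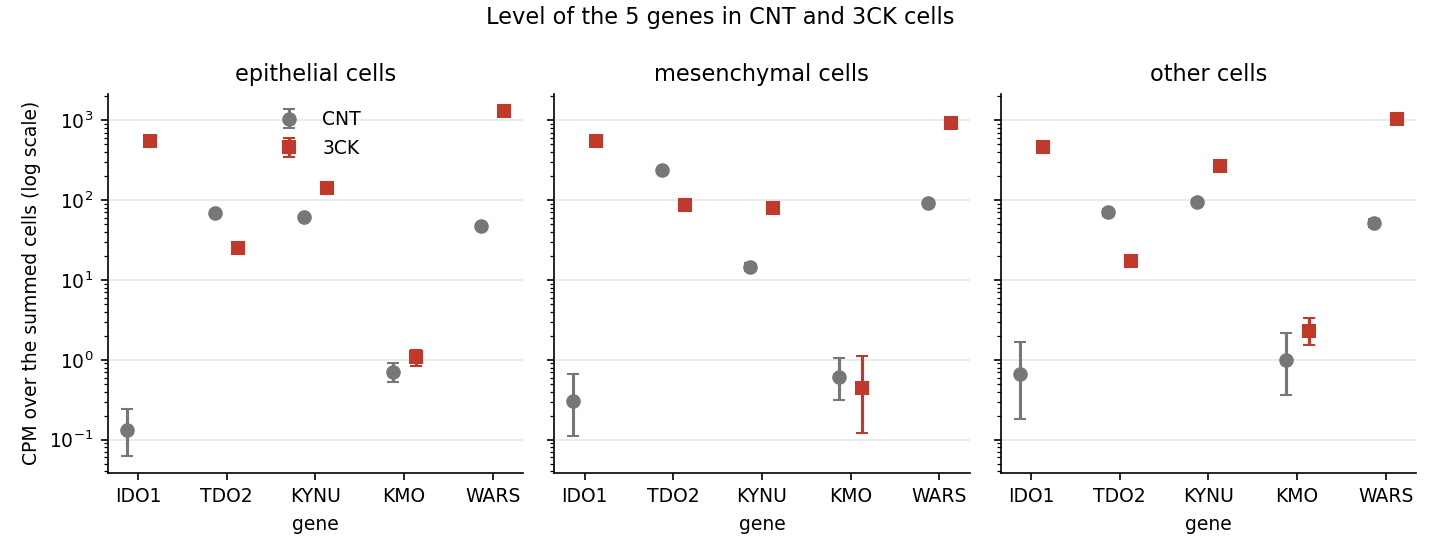
CPM of the 5 genes (log axis) in epithelial, mesenchymal and other cells; circles are the CNT library, squares the 3CK library, and bars the 95% Poisson interval for counting error, often smaller than the symbol. IDO1, WARS and KYNU lie higher and TDO2 lies lower in 3CK in all 3 classes, and the KMO intervals of the libraries overlap in each class.

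IDO1 (ENSG00000131203) catalyses the first step in most tissues outside the liver. CNT epithelial cells held 10 IDO1 UMIs in all, 0.132 CPM, and 3CK epithelial cells 38742 UMIs, 553 CPM. The log2 ratio was 12.03 (11.15 to 13.09), the 2nd highest of the 16830 genes, with its width set by the 10 CNT molecules. Mesenchymal cells held 6 UMIs, 0.305 CPM, in CNT and 4994 UMIs, 548 CPM, in 3CK. Their log2 ratio was 10.81 (9.69 to 12.26), the 3rd highest of 17351. The cells of neither class gave 4 UMIs in CNT, 0.660 CPM, and 466 CPM in 3CK. IDO1 was thus near the counting floor (3 UMIs are 0.0395 CPM in CNT epithelial cells and 0.153 CPM in CNT mesenchymal cells) in every untreated class and between 466 and 553 CPM in every treated one. The gene lies on the forward strand of chromosome 8 in build GRCh38 (chr8:39902275-39928790).

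Most treated cells of both classes carried the IDO1 mRNA, but not all of them. With each cell thinned to 5000 UMIs and shallower cells left out (595 and 240 epithelial, 257 and 17 mesenchymal cells in CNT and 3CK), IDO1 was seen in 1 of 1060 CNT epithelial cells (0.0943%, 0.00239 to 0.525%) and in 531 of 776 3CK epithelial cells (68.4%, 65.0 to 71.7%). Among mesenchymal cells it was seen in 0 of 320 in CNT, which at this depth allows up to 0.938% of cells with a UMI (3 counts of the total, the limit used for each count of 0), and in 60 of 107 in 3CK (56.1%, 46.2 to 65.7%). Without thinning the shares were 0.604% and 83.8% in epithelial cells, and 1.04% and 83.9% in mesenchymal cells, at median depths of 37807 and 72198 UMIs, and of 23220 and 65363 UMIs. In 3CK epithelial cells with at least 10000 UMIs, the IDO1 level of single cells had a 5th percentile of 0, a median of 348 and a 95th percentile of 1735 CPM. The 73 of these 730 cells with the most IDO1 UMIs held 39.9% of the class's IDO1 molecules.

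In 3CK cells with at least 10000 UMIs, the median IDO1 level was 348 CPM in epithelial and 241 CPM in mesenchymal cells. The 11 of 106 such mesenchymal cells with the most IDO1 held 51.0% of its molecules. Summed over the cells of 3CK, IDO1 stood at nearly the same level in both classes. The log2 ratio of epithelial over mesenchymal cells was 0.01 (-0.03 to 0.06), so mesenchymal cells held 99.1% of the epithelial level. Other mRNAs of epithelial and hepatic cells, read in the same way in 3CK, spanned a wide range. Mesenchymal cells held 1.22% of the epithelial TTR level, 1.81% of APOA1 and 3.01% of CDH1, but 63.7% of KRT18, and KRT8 was at 4023 against 7121 CPM, CDX2 at 35.6 against 83.3 CPM and ELF3 at 34.1 against 103 CPM. The part of RNA carried over between droplets in the mesenchymal IDO1 level was not tested. The 3CK mesenchymal class also carried some myeloid transcripts. Of the 10 leukocyte and macrophage markers, 4 reached 10 CPM there (3 in CNT), and their summed level was 211 CPM against 70.0 CPM in CNT. TYROBP was at 87.9 against 27.1 CPM, CD68 at 91.4 against 26.7, FCER1G at 15.7 against 1.68 and PTPRC at 3.62 against 0.560 CPM. Other markers did not follow: CD14 was at 12.0 against 13.1 CPM and CD163 at 0.110 against 0.356 CPM. CSF1R (0.439 against 0.305 CPM) and LYZ (0.219 against 0.153 CPM) were hardly present, and CD3E and MS4A1 were at 0. The part of cells with such transcripts in the mesenchymal values was not tested. In epithelial cells the same markers summed to 102 CPM in CNT and 116 in 3CK, and PTPRC was at 0.237 and 0.0856 CPM.

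**Figure D2:**
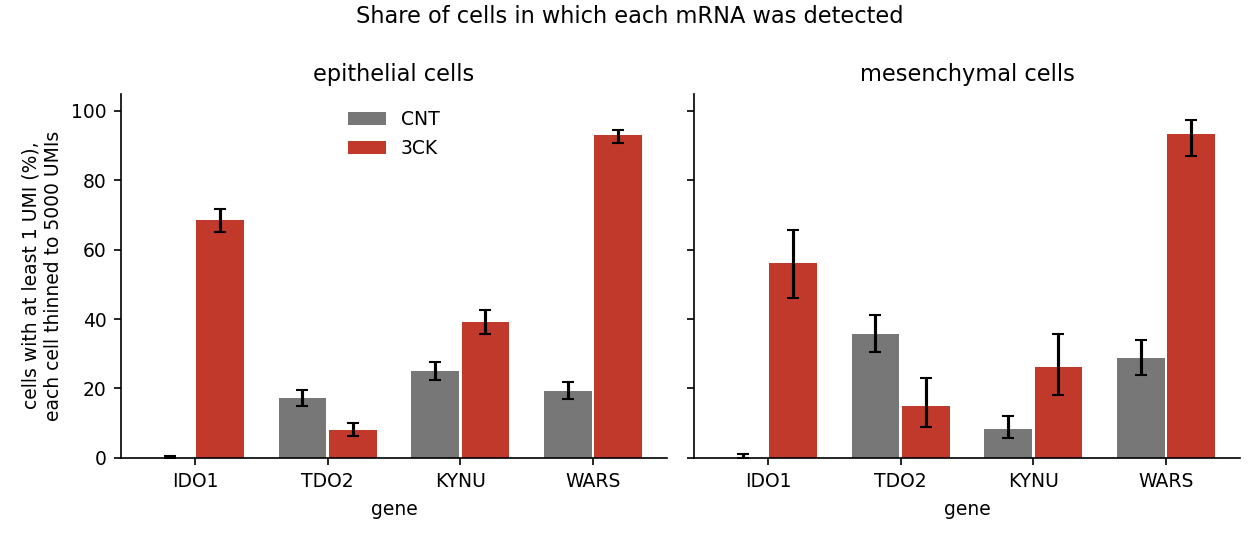
Percent of cells with at least 1 UMI of IDO1, TDO2, KYNU or WARS after thinning each cell to 5000 UMIs, in CNT (grey) and 3CK (red) epithelial and mesenchymal cells, with exact binomial intervals. In 3CK, WARS reaches 92.9% and 93.5% of cells and IDO1 68.4% and 56.1%, and only the TDO2 bars are lower in 3CK than in CNT.

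TDO2 (ENSG00000151790; chr4:155854738-155920406, forward strand) encodes the tryptophan dioxygenase best known from hepatocytes, and it ran opposite to IDO1. Its epithelial level was 68.4 CPM in CNT (5186 UMIs) and 25.0 in 3CK (1754 UMIs), a log2 ratio of -1.45 (-1.53 to -1.37). The mesenchymal level was 236 CPM in CNT and 86.7 in 3CK, with a log2 ratio of -1.45 (-1.56 to -1.34). By summed UMIs the size of the difference was thus alike in both classes, although mesenchymal cells held 346% of the epithelial level in each library. With every cell given equal weight, the log2 ratios were -1.62 in epithelial and -1.08 in mesenchymal cells. The epithelial ratio also differed between the ranges of TTR described further on. The share of thinned cells with the mRNA was 17.2% (15.0 to 19.6%) and 7.99% (6.18 to 10.1%) in CNT and 3CK epithelial cells, and 35.6% (30.4 to 41.1%) and 15.0% (8.80 to 23.1%) in mesenchymal cells. TDO2 was concentrated in few cells: of the epithelial cells with at least 10000 UMIs, the 101 of 1011 with the most TDO2 held 73.7% of its molecules in CNT, and the 73 of 730 with the most held 81.7% in 3CK. Counted by UMIs, most molecules for the first step were thus TDO2 in CNT and IDO1 in 3CK, in both classes. IDO2, the IDO1 paralog, stayed low, with 17 and 82 UMIs in epithelial cells (0.224 and 1.17 CPM, log2 ratio 2.38, 1.62 to 3.23) and 12 and 25 UMIs in mesenchymal cells (log2 ratio 2.17, 1.12 to 3.29).

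KYNU (ENSG00000115919; chr2:142877657-143055833, forward strand), kynureninase, cleaves kynurenine and 3-hydroxykynurenine. Epithelial cells held 60.9 CPM in CNT (4621 UMIs) and 142 in 3CK (9974 UMIs), a log2 ratio of 1.22 (1.17 to 1.27). Mesenchymal cells held 14.5 CPM in CNT (284 UMIs) and 80.1 in 3CK (730 UMIs), a log2 ratio of 2.47 (2.27 to 2.67). CNT mesenchymal cells thus had 23.7% of the epithelial KYNU level and 3CK mesenchymal cells 56.3%. With every cell given equal weight, in place of cells weighted by their UMIs, the mesenchymal log2 ratio was 1.35. KYNU was seen in 25.0% (22.4 to 27.7%) of thinned CNT and 39.0% (35.6 to 42.6%) of thinned 3CK epithelial cells, and in 8.44% (5.63 to 12.0%) and 26.2% (18.2 to 35.6%) of mesenchymal cells. The cells of neither class had the highest levels, 95.3 CPM in CNT and 266 in 3CK.

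KMO (ENSG00000117009; chr1:241532134-241595642, forward strand), the hydroxylase between kynurenine and 3-hydroxykynurenine, was hardly present. All CNT cells together gave 71 KMO UMIs (0.699 CPM) and all 3CK cells 108 (1.18 CPM). In epithelial cells the counts were 53 and 75, with a log2 ratio of 0.61 (0.09 to 1.15), which changed sign when cells were weighted equally (-0.94). In mesenchymal cells they were 12 and 4, and the interval of the ratio (-2.57 to 1.25) spans 0. No difference in KMO was detectable at this depth in mesenchymal cells. KMO was seen in 3 of 1060 and 7 of 776 thinned epithelial cells, and in 0 of 320 and 0 of 107 thinned mesenchymal cells, which at this depth allows up to 0.938% and 2.80% of cells with a UMI. Without thinning it was seen in 9 of 577 and 4 of 124 mesenchymal cells (1.56% and 3.23%).

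The other enzymes of the route were mostly within 2-fold between the libraries, as were most genes tested. Of 14 other genes of kynurenine and NAD synthesis, 13 reached 1 CPM in epithelial cells. Of these 13, 2 were at least 2-fold higher in 3CK and 1 lower, beside 8.47% and 12.2% of all genes tested. The median log2 ratio of the 13 was -0.04, beside 0.01 over all genes tested. The 2 higher ones were IDO2 and NAMPT, the salvage enzyme that makes NAD from nicotinamide rather than from tryptophan (48.3 CPM in CNT and 190 in 3CK, log2 ratio 1.98, 1.92 to 2.03). The lower one was HAAO, which oxidises 3-hydroxyanthranilate (11.6 and 5.18 CPM, log2 ratio -1.17, -1.35 to -0.99), with log2 ratios of -1.08, -1.19 and -0.10 in TTR-high, TTR-intermediate and TTR-low cells. QPRT, which turns quinolinate into the NAD precursor, was the most abundant of the list by UMIs and stood at 378 CPM in CNT and 238 in 3CK (log2 ratio -0.67, -0.70 to -0.64). AFMID, which hydrolyses N-formylkynurenine, was at 11.4 and 11.2 CPM. The kynurenine aminotransferases went both ways, with log2 ratios of -0.65 for KYAT1, 0.28 for KYAT3 and -0.84 for AADAT. In mesenchymal cells 12 of the 14 reached 1 CPM. Of these, 1 was at least 2-fold higher (IDO2) and 1 lower (AADAT, 94 and 16 UMIs), beside 6.04% and 16.7% of all genes. The median was -0.12, beside -0.21 over all genes. NAMPT there was at 170 CPM in CNT and 246 in 3CK, and QPRT at 143 and 136 CPM.

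WARS (ENSG00000140105; chr14:100333790-100376805, reverse strand) was the most abundant of the 5 by UMIs in 3CK. Epithelial cells held 47.6 CPM in CNT (3615 UMIs) and 1308 in 3CK (91689 UMIs). This is a 27.4-fold difference, a log2 ratio of 4.78 (4.73 to 4.83), the 93rd highest of the 16830 genes. In mesenchymal cells WARS was at 92.4 CPM in CNT and 922 in 3CK, 9.98-fold, a log2 ratio of 3.32 (3.25 to 3.39). The untreated level was higher in mesenchymal cells (194% of the epithelial level), and the treated level lower (70.5%). WARS was seen in 19.3% (17.0 to 21.8%) of thinned CNT and 92.9% (90.9 to 94.6%) of thinned 3CK epithelial cells, and in 28.8% (23.9 to 34.0%) and 93.5% (87.0 to 97.3%) of mesenchymal cells. Its level was more even over cells than that of IDO1: in 3CK epithelial cells with at least 10000 UMIs the 5th percentile was 154, the median 1127 and the 95th percentile 3140 CPM, and 1 of 730 cells was at 0.

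The other aminoacyl-tRNA synthetases differed less than WARS. Of 22 cytosolic synthetases and scaffold proteins, 20 had a log2 ratio above 0 in epithelial cells, with a median of 0.47. Over all genes tested there, 8485 of 16830 were above 0, with a median of 0.01. Of the 22, 1 was at least 2-fold higher, beside 8.47% of all genes tested. That one was GARS, the glycyl enzyme (81.9 CPM in CNT and 169 in 3CK, log2 ratio 1.04, 1.00 to 1.09), which was under 2-fold in TTR-high (0.76) and TTR-intermediate cells (0.92). The lowest was QARS, the glutaminyl enzyme, at -0.38 (-0.45 to -0.31). In mesenchymal cells the ratios of the 22 lay between -0.67 for IARS and 0.62 for KARS, and 12 were above 0, beside 6447 of 17351 genes. Their median was 0.06, beside -0.21 over all genes tested. None was at least 2-fold different there, beside 6.04% of all genes higher and 16.7% lower. WARS2, the mitochondrial tryptophanyl-tRNA synthetase encoded by a separate gene, was at 7.47 CPM in CNT and 6.63 in 3CK epithelial cells (log2 ratio -0.17, -0.35 to 0.01), and at 11.4 and 7.79 CPM in mesenchymal cells (-0.55, -0.96 to -0.16). None of the 17 mitochondrial synthetases was 2-fold different in either class. This stands beside 8.47% of all genes higher and 12.2% lower in epithelial cells, and 6.04% and 16.7% in mesenchymal cells. The medians of the 17 were 0.04 and -0.32, beside 0.01 and -0.21 over all genes tested. No synthetase of either list thus came near the WARS ratios of 4.78 and 3.32.

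**Figure D3:**
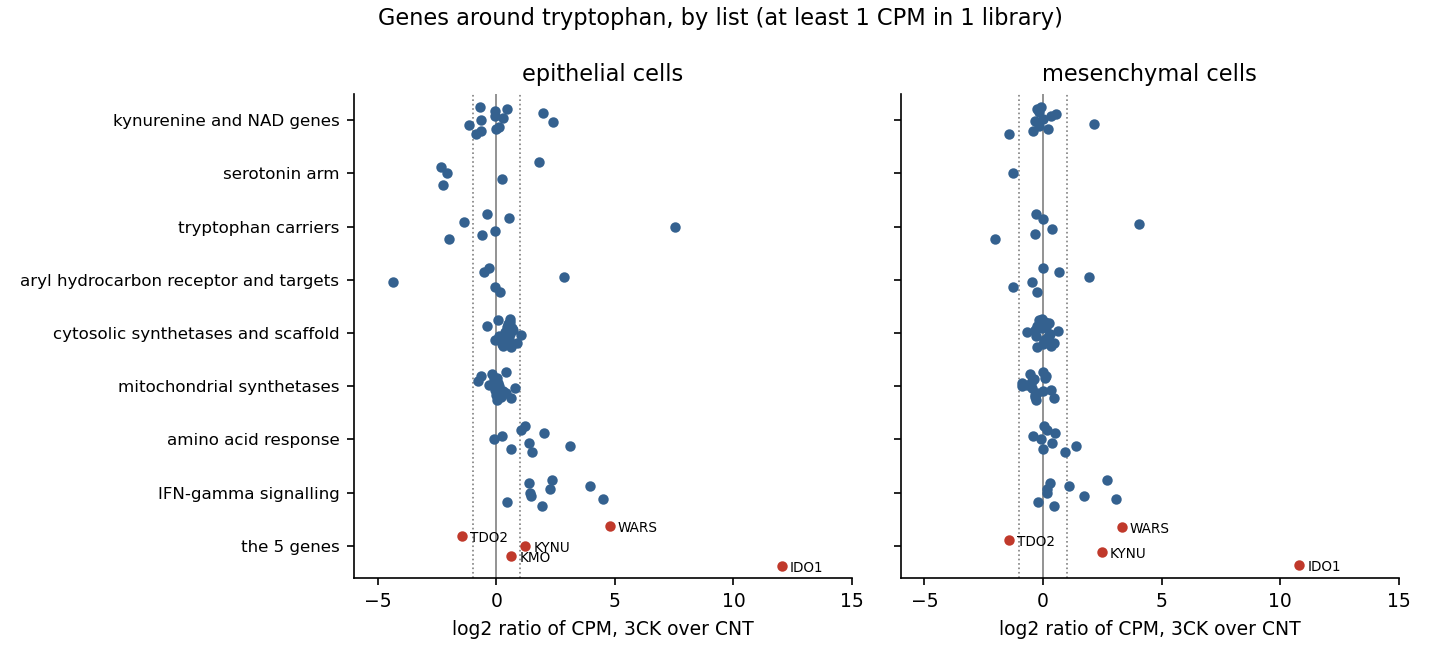
Log2 ratio of CPM, 3CK over CNT, for each gene with at least 1 CPM in 1 library, by list, in epithelial (left) and mesenchymal (right) cells; red points are the 5 genes, dotted lines mark 2-fold, and the mesenchymal SLC6A14 point is a lower bound. KMO is left out on the right, under 1 CPM. The synthetases cluster near 0 while WARS lies at 4.78 and 3.32, and TDO2 lies on the other side of 0 from IDO1.

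The RefSeq promoter windows (250 bases before to 50 after an annotated start, GRCh38.p14) were searched on both strands for 2 letter patterns bound by interferon-activated factors. The ISRE pattern (GAAA, any 2 bases, GAAA) occurs in 3.57% of 35116 windows of this length, and the GAS pattern (TTC, any 3 bases, GAA) in 7.66%. Windows were found for 4 of the 5 genes, and IDO1 had none in the table. The windows of TDO2 and KMO held neither pattern, and WARS has 2 windows, of which the upstream one held neither. The downstream WARS window, whose start lies at chr14:100375347-100375347, held 1 of each, which do not overlap, and the KYNU window held 2 GAS matches. The sequences below are shown because WARS and KYNU are the genes with higher levels in 3CK whose windows hold a match before the start. Each is printed 5′ to 3′ on the strand of its gene, with the pattern in capitals.
WARS ISRE, chr14:100375383-100375412, reverse strand, pattern at 55 to 46 bases before the start: tttcagaaggGAAACTGAAAgaaagagggg
WARS GAS, chr14:100375470-100375499, reverse strand, pattern at 142 to 134 bases before the start: gctcaagtgtTTCTGAGAAtctgggtgatt
KYNU GAS, chr2:142877620-142877649, forward strand, pattern at 34 to 26 bases before the start: gtctgagcagTTCTTTGAAtttctcaccct
Both WARS stretches also lie in an untranslated exon of transcripts that start further upstream. A match is a description of letters and not a bound site, and 3′ libraries do not show which start a molecule came from.

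The epithelial class was not uniform, and the genes differed in how they followed its division by TTR. Epithelial cells were divided by TTR, the hepatic transport protein transcript, into high (at least 300 UMIs per 10000), intermediate (30 to 300) and low. CNT had 1070, 522 and 63 such cells and 3CK 179, 653 and 184, so the libraries differed in this mix. In 3CK, IDO1 was at 408 CPM in TTR-high, 560 CPM in TTR-intermediate and 685 CPM in TTR-low cells, and WARS at 909, 1367 and 1552 CPM. The WARS log2 ratio within the ranges was 4.22 (4.16 to 4.28), 4.88 (4.78 to 4.99) and 5.37 (5.15 to 5.60), so both mRNAs were higher in 3CK within each range. CNT held only 4, 4 and 2 IDO1 UMIs in the 3 ranges.

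KYNU and TDO2 depended more on the range. KYNU was at 56.9, 74.3 and 59.2 CPM in CNT and at 83.0, 121 and 274 CPM in 3CK, with log2 ratios of 0.54 (0.45 to 0.64), 0.70 (0.61 to 0.79) and 2.21 (2.03 to 2.40). The KYNU ratio therefore stayed below 2-fold in TTR-high and TTR-intermediate cells and passed it in TTR-low cells. TDO2 was at 76.6, 48.3 and 42.8 CPM in CNT and at 44.1, 24.2 and 6.89 CPM in 3CK, with log2 ratios of -0.80 (-0.92 to -0.68), -0.99 (-1.13 to -0.86) and -2.63 (-3.01 to -2.27), so it too passed 2-fold in TTR-low cells alone. In cells with enterocyte markers (at least 5 UMIs per 10000 of FABP2 and RBP2, 110 CNT and 16 3CK cells) IDO1 reached 160 CPM and WARS 713 CPM in 3CK, KYNU was at 27.3 and 28.1 CPM, and TDO2 at 133 and 121 CPM. Cycling epithelial cells (at least 1 UMI per 10000 of MKI67 and TOP2A, 87 and 47 cells) held 581 CPM of IDO1 and 1117 CPM of WARS in 3CK, beside 551 and 1317 CPM in non-cycling cells.

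**Figure D4:**
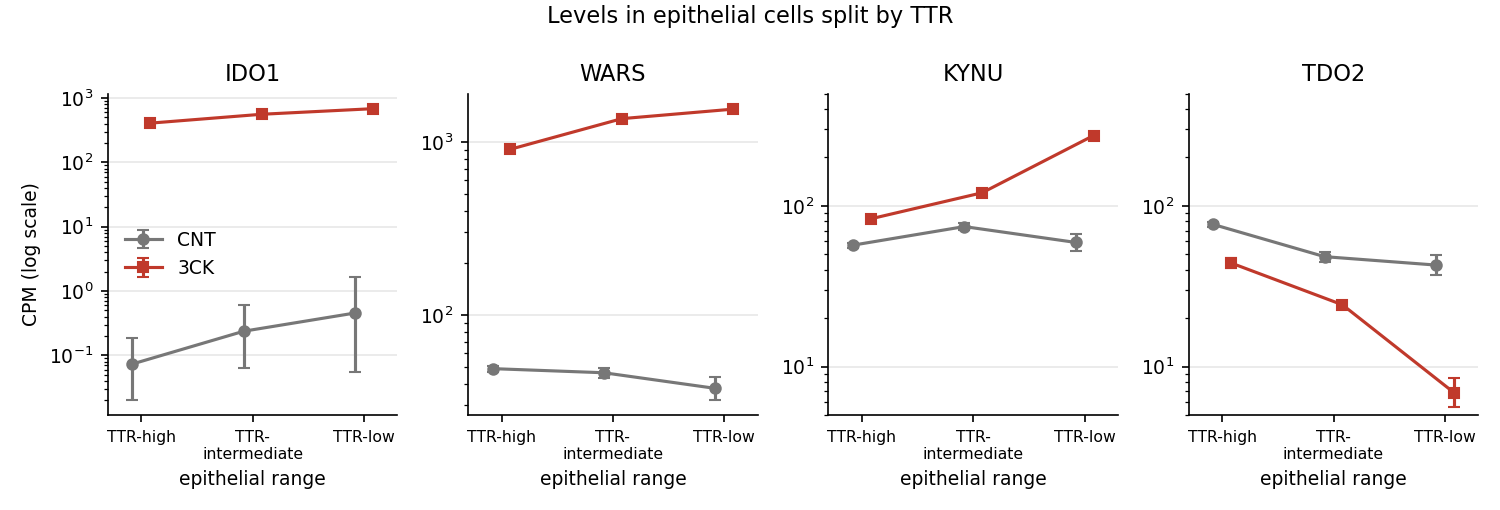
CPM (log axes with different scales) of IDO1, WARS, KYNU and TDO2 in TTR-high, TTR-intermediate and TTR-low epithelial cells of CNT (grey circles) and 3CK (red squares), with 95% Poisson intervals. IDO1 and WARS are higher in 3CK in all 3 ranges, while the KYNU and TDO2 points of the 2 libraries lie closest together in TTR-high cells.

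In single 3CK cells, WARS was present with and without IDO1. Of 776 thinned epithelial cells, 511 (65.9%, 62.4 to 69.2%) had both mRNAs, 210 (27.1%, 24.0 to 30.3%) had WARS only, 20 (2.58%, 1.58 to 3.95%) had IDO1 only, and 35 (4.51%, 3.16 to 6.22%) had neither. Of 107 mesenchymal cells, 58 (54.2%, 44.3 to 63.9%) had both, 42 WARS only, 2 IDO1 only and 5 neither. In CNT, 0 of 1060 epithelial and 0 of 320 mesenchymal cells had UMIs of both, which at this depth allows up to 0.283% and 0.938% of such cells. IDO1 itself was seen in only 1 and 0 of these CNT cells, so this count tells nothing about pairing. Cells with IDO1 only were the fewest in 3CK, but their interval overlapped that of cells with neither in both classes. WARS was seen in 92.9% of the thinned 3CK epithelial and 93.5% of the mesenchymal cells, which by itself leaves few cells without it.

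Cells with more IDO1 held more WARS on average. WARS averaged 4.71 UMIs (4.44 to 4.99) per thinned epithelial cell with 0 IDO1 UMIs, 6.08 (5.66 to 6.53) with 1, 7.27 (6.89 to 7.66) with 2 to 3 and 8.00 (7.63 to 8.39) with 4 or more. Over the same bins IRF1, an interferon-activated transcription factor, averaged 1.37 UMIs in the lowest and 2.50 in the highest bin, and the chemokine CXCL10 2.67 and 13.8 UMIs. KYNU was at 0.845 UMIs with no IDO1 and 0.688 with 4 or more, and VARS, the valyl-tRNA synthetase, at 0.241 and 0.183. The bins also differed in genes outside this response: ACTB was at 13.2 and 18.9 UMIs and TTR at 123 and 70.9 UMIs, and the part of these differences was not tested. In mesenchymal cells WARS averaged 3.87 (3.33 to 4.48), 4.00 (2.91 to 5.37), 5.75 (4.83 to 6.79) and 6.16 (5.23 to 7.21) UMIs, over 47, 11, 24 and 25 cells.

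**Figure D5:**
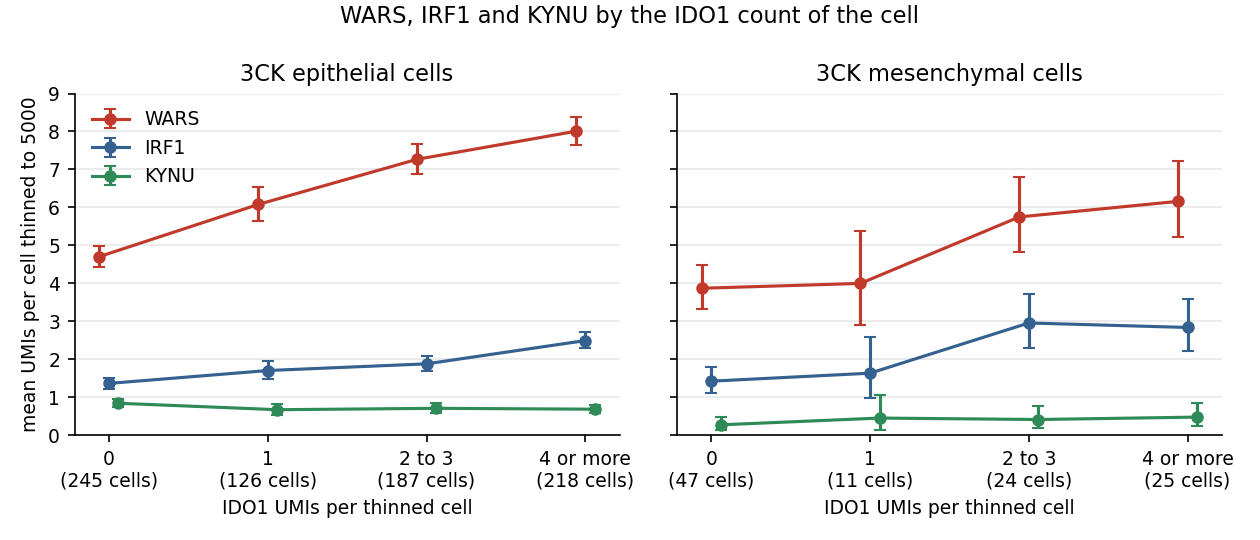
Mean UMIs of WARS, IRF1 and KYNU per 3CK cell thinned to 5000 UMIs (vertical axis) by the number of IDO1 UMIs in the cell (horizontal axis, with the number of cells), with 95% Poisson intervals for counting error. In epithelial cells WARS lies between 4.71 and 8.00 and is higher in each successive bin, while KYNU stays between 0.675 and 0.845.

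As a description over the 776 thinned 3CK epithelial cells, which share 1 library, the rank correlation of IDO1 with WARS was 0.29. WARS ranked 11th of 3228 genes with at least 50 CPM, whose median correlation with IDO1 was 0.02. The 10 genes most like IDO1 were CXCL11 (0.44), CXCL10 (0.43), GBP5 (0.40), IL32 (0.38), PLAAT4, ISG15, LAP3, VAMP5, ISG20 and IFIT3 (0.30). IRF1 ranked 21st (0.26). For WARS the most similar were GBP5 (0.46), RNF213 (0.32), GBP1 (0.31), ICAM1 (0.31) and MUC1 (0.30), with IDO1 7th. KYNU was near 0 with IDO1 (-0.02) and at 0.07 with WARS, and the genes most like it were FNDC3B (0.33), WSB1, the nuclear RNA MALAT1 (0.31), TRIO, NRG3 and NEAT1. MALAT1 stood at 4328 CPM in CNT and 6680 in 3CK epithelial cells, at 11070 and 4825 CPM in mesenchymal cells, and its part in the KYNU difference was not tested. The highest value for TDO2 was 0.21, with UGT2B11.

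A small group of deep 3CK epithelial cells had no IDO1. These were 43 of the 730 cells with at least 10000 UMIs (5.89%), with a median of 74860 UMIs against 94788 in the other 687. They held 613 CPM of WARS against 1341 CPM, 160 CPM of IRF1 against 390 CPM and 198 CPM of GBP1 against 416 CPM. The WARS level of these cells was still above the 47.6 CPM of CNT epithelial cells. TTR was at 46940 CPM in them against 18300 CPM, and TDO2 at 69.7 against 22.9 CPM. Among mesenchymal cells 10 of 106 had no IDO1, and these held 894 CPM of WARS against 921 CPM.

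Of the upstream IFN-γ signalling genes, 8 of 9 were at least 2-fold higher in 3CK epithelial cells and none lower. This stands beside 8.47% and 12.2% of all genes tested, and the median log2 ratio of the 9 was 1.92. IRF1 was at 16.6 CPM in CNT and 380 in 3CK (log2 ratio 4.52, 4.43 to 4.60), and SOCS1, a feedback inhibitor, at 4.69 and 71.9 CPM (3.94, 3.78 to 4.10). The exception was the receptor chain IFNGR2, at 0.46 (0.39 to 0.52). In mesenchymal cells 4 of 9 were at least 2-fold higher, beside 6.04% of all genes tested. Among them were IRF1 (3.08, 2.97 to 3.18), IRF8 (13 and 20 UMIs) and SOCS1 (1.09, 0.97 to 1.21). In these cells IFNGR1, JAK1 and JAK2 had log2 ratios of 0.46, 0.19 and 0.16, beside 1.92, 1.41 and 2.27 in epithelial cells.

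The mRNAs of the tryptophan carriers differed in direction. SLC6A14, a concentrative carrier of neutral and cationic amino acids, had 11 UMIs (0.145 CPM) in CNT and 1899 UMIs (27.1 CPM) in 3CK epithelial cells, a log2 ratio of 7.54 (6.70 to 8.55), the 19th highest. In mesenchymal cells it had 0 and 23 UMIs, a level at least 16.5-fold higher in 3CK against a floor of 3 UMIs in CNT. The aromatic amino acid carrier SLC16A10 was at 28.8 and 7.20 CPM in epithelial cells (-2.00, -2.14 to -1.86), and SLC6A19, the brush-border carrier of neutral amino acids, at 25.9 and 10.2 CPM (-1.35, -1.48 to -1.23). Within TTR-high, TTR-intermediate and TTR-low cells SLC6A19 had log2 ratios of -0.74, -1.69 and -0.29, and SLC16A10 of -1.20, -2.66 and -1.59. The subunits of the exchanger LAT1 differed less, with SLC7A5 at 38.6 and 56.2 CPM and SLC3A2 at 371 and 356 CPM. Of the 7 carriers, 1 was at least 2-fold higher and 2 lower in epithelial cells, beside 8.47% and 12.2% of all genes tested. Of the 6 measured in mesenchymal cells 1 was higher and 1 (SLC16A10) lower, beside 6.04% and 16.7%, so the lower count is at the share of all genes.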

How the data were processed

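The deposited values are raw UMI counts for each gene in each cell barcode, which the authors made with Cell Ranger 7.1.0, per the file headers, and build GRCh38, per the submitters' processing notes. For the annotation and for the use of intronic reads or strand, the setting is not given in the sources used here. WARS overlaps WDR25, TDO2 overlaps ASIC5 and KMO overlaps OPN3 on the opposite strand, so without strand their reads could not be told apart.

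Barcodes with at least 500 genes and at most 20% mitochondrial UMIs were kept (718 CNT and 227 3CK barcodes removed of 3257 and 1641), and the highest Scrublet scores (scanpy 1.11.5) were removed at 0.8% per 1000 barcodes (52 and 16). Counts were summed per library and class and divided by all UMIs of the sum to give CPM. A library at 0 was set to 3 UMIs, and no ratio was formed where both had 3 or fewer. Intervals are exact Poisson for sums, exact binomial (Clopper-Pearson) for shares, and for ratios follow from the binomial interval of the part of both counts that lay in 3CK, computed with scipy 1.17.1. UMIs of 1 library are not replicates, and no test was made. The ratio, interval and thinning steps were tested on simulated data.

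The members, gene lists and classes were chosen with earlier results of these data known. Named genes are the 5 members, any gene of the kynurenine, serotonin, carrier and IFN-γ lists, of the other lists those with the highest CPM, the extreme ratios or a 2-fold difference, and the 10 genes with the highest rank correlation with a member; ACTB, TTR, CXCL10, GBP1, VARS and MALAT1 were added as comparisons. All 137 list and marker symbols were found. Gene positions are from the GENCODE annotation of GRCh38 and promoter sequences from RefSeq. Alternatives changed the filter on cells, doublets, depth, class limits, scaling (edgeR 4.0.16 TMM factors; a total without mitochondrial, ribosomal and the 50 most abundant genes), cell weighting and thinning. The split by TTR within the comparison of libraries was added after seeing the data.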

Additional observations from a re-analysis of the deposited data

Results flagged for a closer look

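The barcodes that the filter removed (718 CNT and 227 3CK) were used only in the alternative without a filter on cells. In the removed barcodes 4 of the 5 mRNAs were higher in 3CK, and the share of all genes higher there was not computed. IDO1 had 0 UMIs in the removed CNT barcodes and 424 in 3CK, 302 CPM. WARS was at 39.0 CPM in CNT and 763 in 3CK, and KYNU at 55.4 and 288 CPM. KMO had 2 and 7 UMIs, 0.840 and 4.99 CPM, with a counting interval of the log2 ratio from 0.18 to 5.87.

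Of the list genes, 11 had log2 ratios of 3CK over CNT with opposite signs in epithelial and mesenchymal cells and counting intervals that left out 0 in both. Each class has 1 library per group, so the difference was not tested. Higher in epithelial and lower in mesenchymal cells were the synthetases AARS (0.61 and -0.23), IARS (0.38 and -0.67), LARS (0.71 and -0.33), FARS2 (0.42 and -0.24) and LARS2 (0.77 and -0.45). The same held for AHR (0.18 and -0.26), IFNGR2 (0.46 and -0.21), MAOA, a monoamine oxidase (0.24 and -1.27), and PHGDH, the first enzyme of serine synthesis (0.22 and -0.41). NQO1 (-0.51 and 0.69) and SLC3A2 (-0.059 and 0.40) went the other way. The median of all genes tested was 0.01 in epithelial and -0.21 in mesenchymal cells. TMM factors moved the mesenchymal median by 0.18. The upper interval ends of AARS (-0.0085), IFNGR2 (-0.046), FARS2 (-0.055), AHR (-0.14) and LARS2 (-0.16) there lie nearer to 0 than this. The reduced total moved the epithelial median by -0.12, more than the lower end of MAOA (0.092). Whether these intervals leave out 0 thus depends on the scaling. All genes were not counted by the same rule.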

How the results depend on the processing

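IDO1, WARS and KYNU were at least 2-fold higher and TDO2 at least 2-fold lower in both classes under all 8 alternatives of filter, doublets, depth, class limits, scaling and weighting. Their log2 ratios ranged from 11.91 to 12.09, 4.59 to 4.81, 1.11 to 1.25 and -1.62 to -1.27 in epithelial cells, and from 10.67 to 12.01, 3.17 to 3.50, 1.35 to 2.87 and -1.49 to -1.08 in mesenchymal cells. Within TTR-high cells 0 genes were 2-fold lower, and within TTR-intermediate cells 1 was, KMO and not TDO2; KYNU (0.54 and 0.70) and TDO2 (-0.80 and -0.99) stayed under 2-fold in both. KMO reversed with equal weight per cell (-0.94 epithelial, 0.067 mesenchymal) and within TTR-intermediate cells (-1.07), and passed 2-fold higher in epithelial cells with stricter classes (1.16) and within TTR-low cells (1.90, from 2 and 23 UMIs), which makes 4 genes higher in each; within TTR-high cells it was at 1.47 but under 1 CPM in both libraries and not counted; the cause was not tested.

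With a minimum of 10 CPM, which leaves fewer genes, 5 rather than 8 mesenchymal list genes were 2-fold higher and 1 rather than 4 lower. Small mesenchymal list medians reversed: kynurenine and NAD genes were at 0.063 with TMM and 0.10 at 10 CPM, carriers at 0.035 and 0.0091, aryl hydrocarbon receptor genes at 0.046 with TMM. The epithelial mitochondrial synthetases were at -0.075 with the reduced total. TMM moved the mesenchymal median of all genes by 0.18 and the reduced total the epithelial one by -0.12.

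Shares depend on depth. At 10000 UMIs epithelial IDO1 was at 77.0%, WARS at 97.1% and both at 75.9%; unthinned, IDO1 was at 83.8% (83.9% mesenchymal). The epithelial rank correlation was 0.38 at 10000 UMIs, Pearson's was 0.32, and within TTR ranges it was 0.42, 0.25 and 0.22; the mesenchymal one was 0.36 at 10000 UMIs, 0.18 with another seed and Pearson's 0.13. With stricter classes the log2 ratio of epithelial over mesenchymal cells in 3CK was 0.17 for IDO1 and 0.46 for WARS. No paired analysis was possible because each group is 1 library. With 71 and 108 KMO UMIs in all, only large differences in KMO could be seen.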

Other observations

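Genes of the amino acid response, which cells run when an amino acid is short or protein folding is strained, were mostly higher in 3CK epithelial cells. Of 9 genes, 6 were at least 2-fold higher and none lower, beside 8.47% and 12.2% of all genes tested. The median log2 ratio of the 9 was 1.19 beside 0.01 over all genes. CHAC1, a glutathione-degrading enzyme, was at 3.99 CPM in CNT and 34.2 in 3CK (log2 ratio 3.10, 2.92 to 3.28), and PSAT1, of serine synthesis, at 22.1 and 89.7 CPM (2.02, 1.94 to 2.10). DDIT3 (1.36), TRIB3 (1.19), SESN2 (1.05) and ASNS, asparagine synthetase (32 and 84 UMIs, 1.51), also passed 2-fold, while EIF2AK4, the kinase that senses uncharged tRNA, was at 65.8 and 62.4 CPM. Within TTR-high, TTR-intermediate and TTR-low cells the log2 ratios were 2.82, 2.72 and 2.49 for CHAC1 and 1.87, 1.90 and 1.43 for PSAT1. DDIT3, TRIB3, SESN2 and ASNS were not divided by TTR, although the libraries differed in this mix. In mesenchymal cells 1 of the 9 was at least 2-fold higher, CHAC1 (18.5 and 49.4 CPM, 1.41, 1.21 to 1.62), and none was lower. This stands beside 6.04% and 16.7% of all genes, and the median was 0.15 beside -0.21 over all genes.

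The other outlets of tryptophan and its products were uneven. In the serotonin arm, 5 of 8 genes reached 1 CPM in epithelial cells, 1 was at least 2-fold higher and 3 lower, beside 8.47% and 12.2% of all genes. SLC6A4 stood at the limit of 1 CPM in CNT, and the list's median log2 ratio of -2.06 was -0.91 in barcodes with at least 10000 UMIs. DDC, the decarboxylase that makes serotonin, was at 18.9 CPM in CNT and 3.99 in 3CK (log2 ratio -2.24, -2.43 to -2.06), MAOB at 26.5 and 6.35 CPM (-2.06, -2.21 to -1.91), and SLC6A4, the serotonin transporter, had 76 and 14 UMIs. TPH2, a tryptophan hydroxylase, had 46 and 146 UMIs (1.78, 1.29 to 2.29), and TPH1, the form of enteroendocrine cells, 32 and 24. The 4 enteroendocrine markers summed to 14.4 CPM in CNT and 5.66 in 3CK, and their part in these values was not tested. DDC was lower within the TTR ranges too, with log2 ratios of -1.71, -2.27 and -0.94. Among the aryl hydrocarbon receptor genes, whose receptor binds kynurenine and other tryptophan products, CYP1A1 had 247 UMIs in CNT and 11 in 3CK epithelial cells (-4.38, -5.40 to -3.51), whereas CYP1B1 was at 5.85 and 42.8 CPM (2.87, 2.73 to 3.02). CYP1B1 was also higher in mesenchymal cells (15.3 and 58.5 CPM, 1.94, 1.73 to 2.15), and AHRR, the repressor of the receptor, was lower there (15.3 and 6.47 CPM, -1.24, -1.67 to -0.84).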
